A study of Mus musculus with 2 samples.

Results

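The genes described here are 28 genes of the tricarboxylic acid cycle, the malate-aspartate shuttle and ketone body use, together with the mitochondrial pyruvate carrier, measured in the heart of 1 mouse. They were chosen by name as a metabolic module, and their rows were found by gene identifier in the deposited gene and transcript tables. All 28 were found, out of 43346 Ensembl genes listed. The heart came from a 10-week-old female adult C57BL/6J mouse with no treatment named in the labels. Its RNA was sequenced as polyA mRNA in 2 libraries, labelled technical replicates 1 and 2 of biological replicate 1. Replicate 2 was made later, in 2015. There is no second animal and no group to compare, so the spread between the 2 libraries is technical and says nothing of other mice.

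The tricarboxylic acid cycle burns acetyl-CoA in the mitochondrial matrix and passes its electrons to the respiratory chain, mostly as NADH. The inner membrane is not permeable to NADH, so the malate-aspartate shuttle moves cytosolic reducing power inwards through paired malate dehydrogenases and aspartate aminotransferases. Heart muscle is rich in mitochondria, burns mainly fatty acids, and can take up ketone bodies from blood and turn them into acetyl-CoA. In such a whole-tissue sample, fewer cells of a type and less RNA per cell cannot be told apart.

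The libraries differed far beyond counting error. Replicate 1 held 22775991 counts, of which 5028154 came from nuclear genes that are not copies of mitochondrial genes, and replicate 2 held 19685821 and 12654724. In TPM, the deposited abundance corrected for transcript length, these nuclear genes held 7.22% of the total in replicate 1 and 39.1% in replicate 2. Levels below are given as nuclear TPM, which is TPM rescaled to the full total of 1000000 over these nuclear genes alone. The mean GC content of nuclear transcripts, weighted by counts, was 45.0% in replicate 1 and 50.5% in replicate 2. All 7 cardiomyocyte markers checked (Myh6, Myl2, Tnnt2, Tnni3, Actc1, Pln and Ryr2) reached 1 TPM in each library and summed to 43554 and 79829 nuclear TPM. Red cell markers (4 globin genes) went from 996 to 12824, fibroblast markers (4) from 2228 to 947 and endothelial markers (4) from 227 to 556. The 6 adipocyte markers summed to 40.7 and 146 and the 3 liver markers to 32.0 and 67.2. Macrophage markers (3) summed to 14.8 and 96.1. Most of the fibroblast sum was Dcn (1979 and 773). Some markers went against the sum of their cell type. Pln (29345 and 6039.5), Ryr2 (357 and 280), Kdr (105 and 82.6) and Adgre1 (9.70 and 6.65) fell, and Col1a1 rose (13.7 and 35.6). These levels and sums are not adjusted for the GC trend described below. With that trend removed, the log2 ratio of counts, replicate 2 over replicate 1, was 0.07 for Pln and 0.08 for Adgre1. It was −0.19 for both Ryr2 and Kdr and −2.67 for Col1a1, so the rise of Col1a1 was reversed. The 4 skeletal muscle markers summed to 13.2 and 2964, nearly all of it Ckm (9.42 and 2762), a creatine kinase that heart muscle also makes, while the myosin Myh4 had no count. What part these other cells have in the values below was not tested.

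Together the 28 genes held almost the same share of nuclear TPM in both libraries, although single genes did not, and by counts the share was larger in replicate 2. Their nuclear TPM summed to 18991 in replicate 1 and 20031 in replicate 2, which is 1.90% and 2.00% of the total, a mean of 1.95% ± 0.074 (SD, n = 2 libraries). By counts the share was 1.49% (95% Wilson interval 1.48 to 1.501, counting error only) and 2.17% (2.16 to 2.18). At least 1 TPM in both libraries was reached by 25 of the 28, against 14.4% of all genes listed. The exceptions were Ogdhl, Me2 and Pcx, with 0.64, 0.76 and 0.05 TPM in replicate 1, and all 3 passed 1 TPM in replicate 2.

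The order of the genes changed between libraries. In replicate 1 the highest were Mpc1, Mpc2, Sucla2, Dld and Oxct1, and in replicate 2 they were Mdh1, Idh2, Mdh2, Ogdh and Cs, so that no gene stood among the first 5 in both. Mpc1 ranked 31 among nuclear genes in replicate 1 and 141 in replicate 2. Mdh2 moved the other way, from rank 1008 to rank 69. Across the 28 genes, log2 nuclear TPM of the libraries had Spearman's rho = 0.50 and Pearson's r = 0.71, a description over genes measured in the same 2 libraries. Over 12539 tested nuclear genes the values were rho = 0.62 and r = 0.63. With replicate 1 adjusted for the GC trend described below, the 28 genes had rho = 0.85 and r = 0.93.

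**Figure D1:**
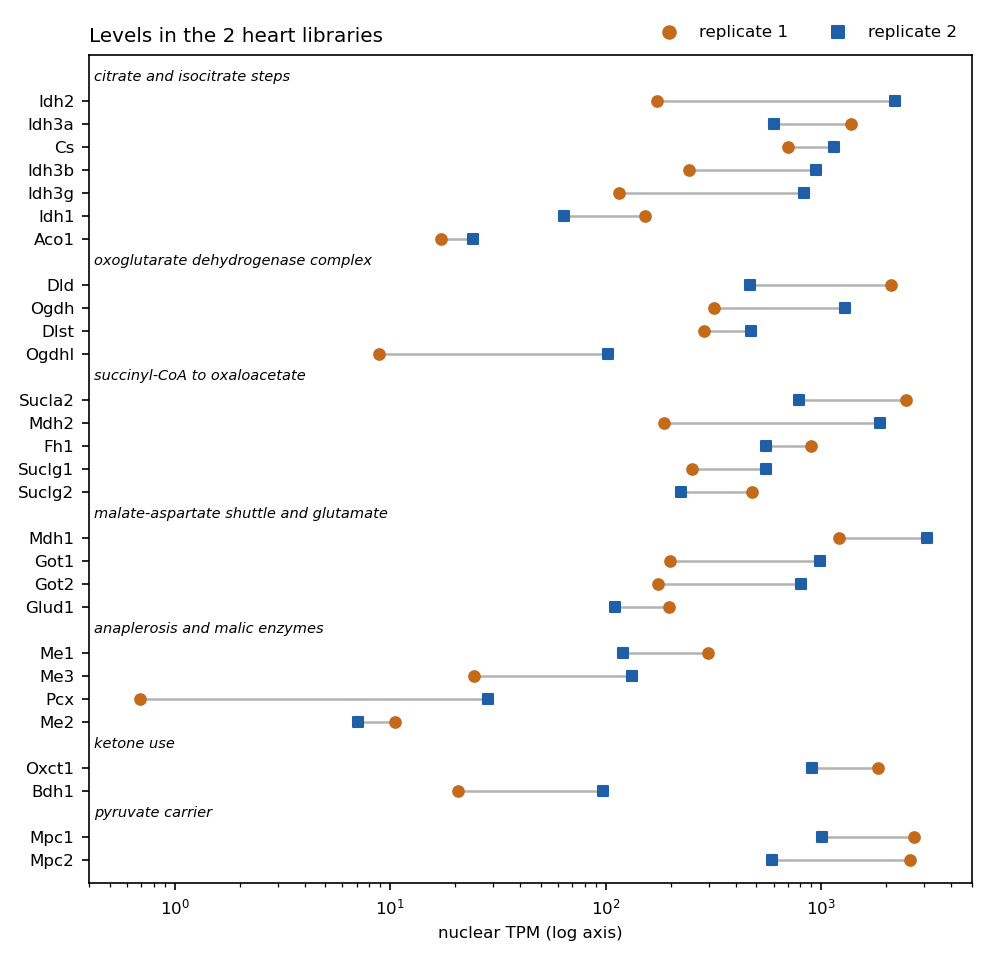
Nuclear TPM of the 28 genes on a log axis, grouped by role, with circles for replicate 1 and squares for replicate 2 joined by a line. Sucla2, Dld, Oxct1 and both pyruvate carrier genes lie higher in replicate 1, while Idh2, Mdh2, Idh3g, Ogdhl and Pcx lie higher in replicate 2.

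The genes of the citrate and isocitrate steps came first by role in replicate 2, with summed nuclear TPM of 2772 and 5802. Citrate synthase (Cs), which joins acetyl-CoA to oxaloacetate, had 701 and 1141 nuclear TPM, a mean of 921 ± 311 (SD, n = 2). Aco1, the cytosolic aconitase that also acts as an iron sensor, had 17.2 and 24.3 and was among the lowest of the set in both libraries. Idh2, the mitochondrial NADP-dependent isocitrate dehydrogenase, had 172 and 2191. Its cytosolic counterpart Idh1 had 152 and 64.1. With 0.1 TPM added to each gene, Idh2 exceeded Idh1 by 0.18 in replicate 1 and 5.09 in replicate 2 on the log2 scale, so the forms were nearly tied in the former library and far apart in the latter.

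The NAD-dependent isocitrate dehydrogenase of the cycle is built from Idh3a, the catalytic subunit, with the regulatory subunits Idh3b and Idh3g. Although the subunits belong to the same enzyme, their RNAs went opposite ways between the libraries. Idh3a had 1374 nuclear TPM in replicate 1 and 603 in replicate 2. Idh3b had 242 and 945, and Idh3g had 115 and 834. Idh3a was thus far above both partners in replicate 1 and below both in replicate 2. Its log2 ratio to Idh3b was 2.498 and then −0.65, and to Idh3g 3.56 and then −0.47. The order of Idh3a and Idh2 turned as well, with log2 ratios of Idh2 over Idh3a of −2.98 and 1.86. Idh3b exceeded Idh3g in both libraries, by 1.07 and 0.18.

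The coding sequences of these subunits differ in base composition, and so do the members at the extremes of the set. Shown are coding bases 301 to 360, counted from the A of the start codon, of Dld (the lowest GC content of the 28, 40.6%), Pcx (the highest, 57.7%) and the 3 subunits. Capitals mark G or C at the third position of a codon.
Dld: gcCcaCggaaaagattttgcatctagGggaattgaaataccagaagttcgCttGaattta
Idh3a: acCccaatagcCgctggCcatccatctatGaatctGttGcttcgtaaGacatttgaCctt
Idh3g: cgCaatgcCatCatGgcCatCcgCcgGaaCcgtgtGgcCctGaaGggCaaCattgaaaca
Idh3b: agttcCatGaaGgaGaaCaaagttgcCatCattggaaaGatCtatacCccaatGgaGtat
Pcx: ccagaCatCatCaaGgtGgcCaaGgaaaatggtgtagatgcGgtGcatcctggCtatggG
They are exonic, from the annotated transcripts Dld-201 (chr12:31341456-31342780, minus strand, exons 5 and 6), Idh3a-201 (chr9:54596013-54596072, plus strand, exon 5), Idh3g-201 (chrX:73781199-73781722, minus strand, exons 5 and 6), Idh3b-201 (chr2:130281883-130283742, minus strand, exons 4 and 5) and Pcx-201 (chr19:4602026-4602245, plus strand, exons 4 and 5) of GRCm38, release M21. Of the 20 codons in each stretch, the last base of 5 was G or C in Dld, 8 in Idh3a, 15 in Idh3g, 12 in Idh3b and 11 in Pcx. Counting all bases, the stretches had 40% GC in Dld, 46.7% in Idh3a, 58.3% in Idh3g, 40% in Idh3b and 53.3% in Pcx. By that measure the Idh3b stretch was level with Dld and below Idh3a. Over the whole coding sequence the last base of the codon was G or C in 33.0% of Dld codons, 47.8% of Idh3a, 59.5% of Idh3g, 63.0% of Idh3b and 69.6% of Pcx codons.

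The ratio between libraries followed GC content in this set as it did over all genes. Each gene's counts were compared by edgeR's exact binomial test with TMM-scaled library sizes, and p-values were adjusted by Benjamini and Hochberg's method over the 13182 genes tested. A call needed an adjusted value under 0.05 together with a difference of 2-fold or more. This compares 2 libraries and covers counting error only. Of the 28 genes, 13 were called higher in replicate 2, where 38.4% of all tested genes were, and 6 were called lower, where 27.2% were. The 19 called in either direction compare with 65.6% of all tested genes, so the number called was near the background. Their median log2 ratio was 0.94, against 0.21 over all tested genes. With library sizes taken from nuclear counts in place of TMM the split was 16 higher and 4 lower, with the median of all genes at 0.35.

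All 7 genes under 46% GC (Dld, Sucla2, Idh1, Mpc1, Idh3a, Mpc2 and Suclg2) had a negative log2 ratio, from −1.95 to −0.87. All 15 genes with at least 50% GC had a positive one, from 0.68 for Aco1 to 5.56 for Pcx. The 6 genes between these limits had ratios from −1.22 to 1.197. Across the 28 genes Pearson's r between GC content and the log2 ratio was 0.92, and over 13155 tested genes with a GC value it was 0.85. The log2 length of each gene's leading coding transcript had r = 0.08 with the ratio in the same 28 genes. These correlations are across genes of the same 2 libraries, and GC content of coding bases (r = 0.86) and of 3′ untranslated bases (r = 0.70) are parts of the same measure.

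**Figure D2:**
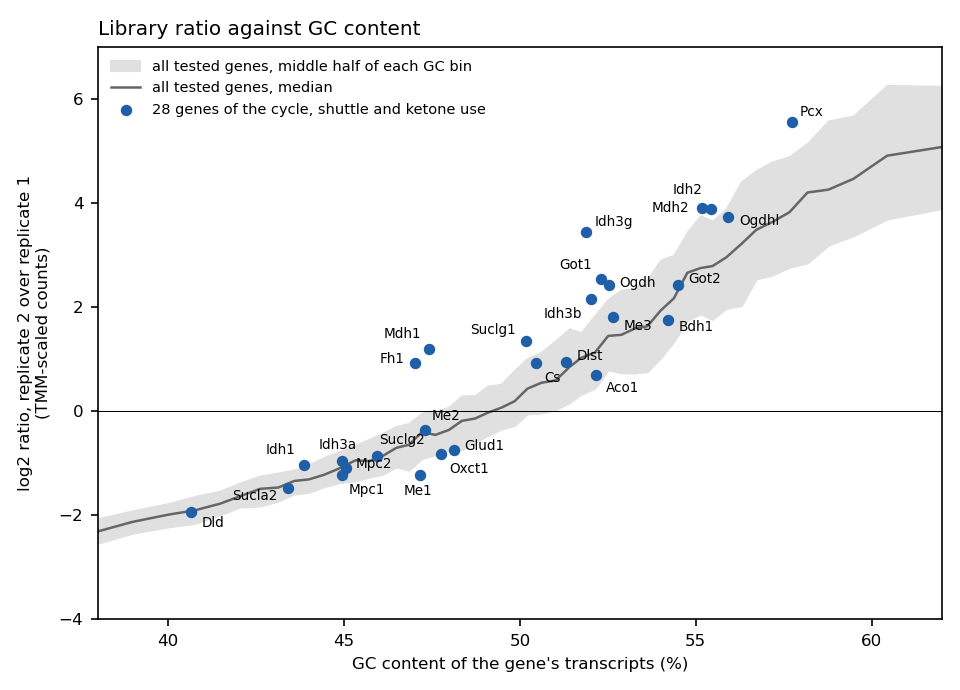
Log2 ratio of replicate 2 over replicate 1 (TMM-scaled counts) against the GC content of each gene's transcripts in percent, with points for the 28 genes and a line and band for the median and interquartile range of all tested genes in bins of GC content. Dld and Sucla2 lie on the line at negative ratios, whereas Idh3g, Mdh1, Fh1 and Pcx lie above it.

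When the median ratio of genes of like GC content was subtracted, none of the 28 was called lower in replicate 2 and 8 were called higher, where 10.8% and 10.2% of all tested genes were. The 8 were Idh3g (log2 ratio 2.42), Pcx (1.74), Mdh1 (1.66), Fh1 (1.57), Got1 (1.40), Mdh2 (1.16), Idh2 (1.10) and Idh3b (1.03). Dld went from −1.95 to −0.04, Sucla2 from −1.48 to −0.13 and Mpc2 from −1.10 to 0.01. Idh3a went from −0.97 to 0.14, below the values left for Idh3b and Idh3g. The subtraction was made over all genes, and within the 28 the remaining ratio still had r = 0.43 with GC content.

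The oxoglutarate dehydrogenase complex, which makes succinyl-CoA, had summed nuclear TPM of 2709 and 2333. Ogdh, its first enzyme, had 319 and 1290 nuclear TPM, and Dlst, the core that carries the lipoyl group, had 285 and 473. Dld, the flavoprotein that the complex shares with pyruvate dehydrogenase, had 2096 and 467. Dld exceeded Dlst by 2.87 on the log2 scale in replicate 1 and was level with it in replicate 2, at −0.02. Ogdhl, a paralogue of Ogdh known mainly from brain, had 68 and 2536 counts, or 8.87 and 103 nuclear TPM. From counts per effective length, the excess of Ogdh over Ogdhl was 35.8-fold in replicate 1, with an exact 95% interval from 28.1 to 46.2, and 12.5-fold in replicate 2. Ogdh was the higher form in both.

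Succinyl-CoA synthetase pairs the shared subunit Suclg1 with Sucla2 for ADP or with Suclg2 for GDP. Sucla2 had 2481 and 788 nuclear TPM and Suclg2 had 475 and 223. The ADP form exceeded the GDP form in both libraries, by a mean log2 ratio of 2.10 ± 0.39 (SD, n = 2). The shared subunit Suclg1 had 252 and 556 and was below Sucla2 in both, with log2 ratios of −3.29 and −0.50. Fumarase (Fh1) had 894 and 555 nuclear TPM, and mitochondrial malate dehydrogenase (Mdh2) had 187 and 1879. Mdh2 thus stood below Fh1 in replicate 1 and above it in replicate 2. That order is of whole genes, because coding transcripts took 1.88% and 79.2% of Mdh2 and 55.7% and 97.9% of Fh1.

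Of the 4 genes of the malate-aspartate shuttle and glutamate entry, Mdh1, Got1 and Got2 were called higher in replicate 2, where 38.4% of all tested genes were, and Glud1 was not called. With the GC trend removed the call of Got2 was lost, its log2 ratio going from 2.43 to 0.26. Cytosolic malate dehydrogenase (Mdh1) had 1201 and 3108 nuclear TPM, the highest mean of the 28 at 2155 ± 1348 (SD, n = 2). Its mitochondrial partner Mdh2 was below it in both libraries, with log2 ratios of −2.67 and −0.73. Coding transcripts took 83.8% and 93.1% of Mdh1 but 1.88% and 79.2% of Mdh2, so this pair is compared as whole genes, not as coding RNA. The cytosolic and mitochondrial aspartate aminotransferases stayed close to each other. Got1 had 198 and 982 nuclear TPM and Got2 had 175 and 808, a log2 ratio of Got2 over Got1 of −0.18 and −0.28. Glutamate dehydrogenase (Glud1), which links glutamate to the cycle, had 197 and 110.

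Pyruvate carboxylase and the malic enzymes had the lowest summed nuclear TPM of the roles, 333 and 288. Pyruvate carboxylase (Pcx), which makes oxaloacetate from pyruvate, had 6 and 848 counts, or 0.69 and 28.3 nuclear TPM. Among the malic enzymes, the cytosolic NADP form Me1 had 297 and 121 nuclear TPM, the mitochondrial NADP form Me3 had 24.5 and 132, and the mitochondrial NAD form Me2 had 10.5 and 7.06. Over all transcripts of each gene, Me2 was the lowest malic enzyme in both libraries. Its counts (56 and 121) gave an adjusted p = 0.142 by edgeR's exact binomial test. Per effective length, Me1 was 28.2-fold (exact interval 21.6 to 37.4) and 17.1-fold above Me2, and Me3 was 2.32-fold (1.69 to 3.23) and 18.7-fold above it. Pcx was below Me3 in both libraries, with log2 ratios of −3.64 and −2.21. Coding transcripts took only 33.4% and 2.66% of Me3. Its comparisons with Me1, Me2 and Pcx are therefore of whole genes, not of coding RNA. The order of Me1 and Me3 cannot be given, because Me3 over Me1 was −3.53 in replicate 1 and 0.13 in replicate 2 on the log2 scale. Me1 and Pcx are also known from fat. Of the 6 adipocyte markers 4 were called higher in replicate 2, against 38.4% of all tested genes, and 2 after the GC trend was removed, against 10.2%. Me1 was called lower and Pcx higher, and the part of fat cells in either was not tested.

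For ketone bodies, Oxct1, the enzyme that activates acetoacetate and is the hallmark of ketone use outside the liver, had 1826 and 901 nuclear TPM (mean 1364 ± 654, SD, n = 2). Bdh1, which oxidises hydroxybutyrate to acetoacetate, had 20.5 and 96.5. Oxct1 exceeded Bdh1 in both libraries, by 6.38 and 3.22 on the log2 scale. The mitochondrial pyruvate carrier is a heteromer of Mpc1 and Mpc2, and its genes were close to each other in replicate 1, with 2681 and 2591 nuclear TPM. In replicate 2 they had 1008 and 593. Mpc1 was therefore the higher of the pair in both, and the log2 ratio of Mpc2 over Mpc1 was −0.05 and −0.77. These levels cover all transcripts of each gene. Coding transcripts took 98.7% and 96.6% of Mpc1 but 9.53% and 61.1% of Mpc2, so the closeness in replicate 1 is not one of coding RNA.

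**Figure D3:**
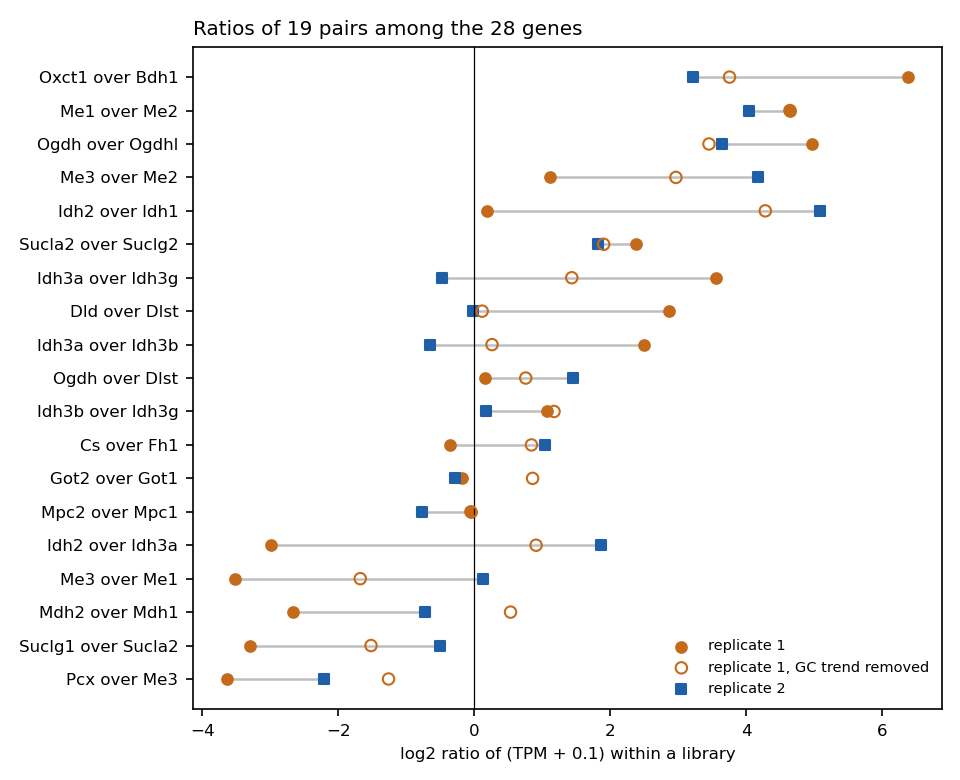
Log2 ratios of (TPM + 0.1) within each library for the 19 gene pairs in which both genes are among the 28, with filled circles for replicate 1, open circles for replicate 1 after the GC trend was removed, and squares for replicate 2. Oxct1 over Bdh1, Me1 over Me2 and Ogdh over Ogdhl lie far to the right in both libraries, while the pairs of Idh3a with its partners cross 0.

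Of 22 pairs, which are these 19 and 3 with other genes of the pathways, 10 had the first gene on top in each library, 5 had the second, and the sign differed in 7. The change of a pair's ratio between libraries had r = 0.93 with the difference in GC content of its genes, over pairs that share genes and libraries. After replicate 1 was brought to the GC profile of replicate 2, the sign still differed in 7 pairs, though not the same ones: Idh2 over Idh3a and Cs over Fh1 became positive in both, while Mdh2 over Mdh1 and Got2 over Got1 turned positive in replicate 1 alone, at 0.53 and 0.86.

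Transcript shares made several of these levels uncertain. For 16 of the 21 genes with more than 1 annotated transcript, the same transcript took the largest share each time. These were Sucla2-203, Bdh1-203, the noncoding Me3-201, and the transcript numbered 201 of Aco1, Idh1, Idh2, Idh3b, Ogdh, Suclg1, Mdh1, Me1, Pcx, Got1, Got2, Glud1 and Oxct1. The lead was narrow for Sucla2-203 in replicate 2, at 49.8% against 49.6% for Sucla2-201, and that of Pcx-201 in replicate 1 rested on 6 counts. With posterior means both of these genes lost their common lead. Among the 20 with at least 100 counts in each library it was 15, where 70.0% of nuclear genes of that kind did. Mdh2 was assigned 98.1% to Mdh2-203, a transcript marked for nonsense-mediated decay, in replicate 1, and 79.2% to the coding Mdh2-201 in replicate 2. Mpc2 was led by the processed transcript Mpc2-203 (493 bases, 40.0% GC) with 89.97% in replicate 1, and by the coding Mpc2-201 (1025 bases, 53.3% GC) with 61.1% in replicate 2. Mpc1 moved from Mpc1-201 with 85.5% to Mpc1-208 with 86.2%, which are both coding. In Idh3g the retained-intron transcript Idh3g-202 and the coding Idh3g-201 were tied at 41.4% and 41.3% in replicate 1, and Idh3g-201 took 96.4% in replicate 2.

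Fh1 was led by the short Fh1-205 (542 bases, 44.3%) in replicate 1 and by the full-length Fh1-201 (2636 bases, 60.4%) in replicate 2. Its effective length was 621 in replicate 1 and 1622 in replicate 2, a 2.61-fold difference. The counts of Fh1, 1298 and 6807, gave a log2 ratio of 0.92 while its nuclear TPM gave −0.69. It was the only 1 of the 28 genes whose signs differed in this way. By counts per transcript, Fh1-201 and Idh3g-201 led in both libraries, while Me3 lost its common lead, with Me3-202 first in replicate 1 (82.3 counts) and the retained-intron Me3-203 in replicate 2 (678). Effective length also rose or fell by more than 1.2-fold in Idh3g, Mdh1, Mdh2, Me3, Bdh1 and Mpc2, so their TPM rests on the assignment of reads to transcripts. In Me3 the noncoding Me3-201 took 50.2% and 54.2%, and coding transcripts took 33.4% and 2.66%. Cs, Idh3a, Ogdhl, Dlst, Dld, Suclg2 and Me2 have 1 transcript each in the tables, numbered 201.

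**Figure D4:**
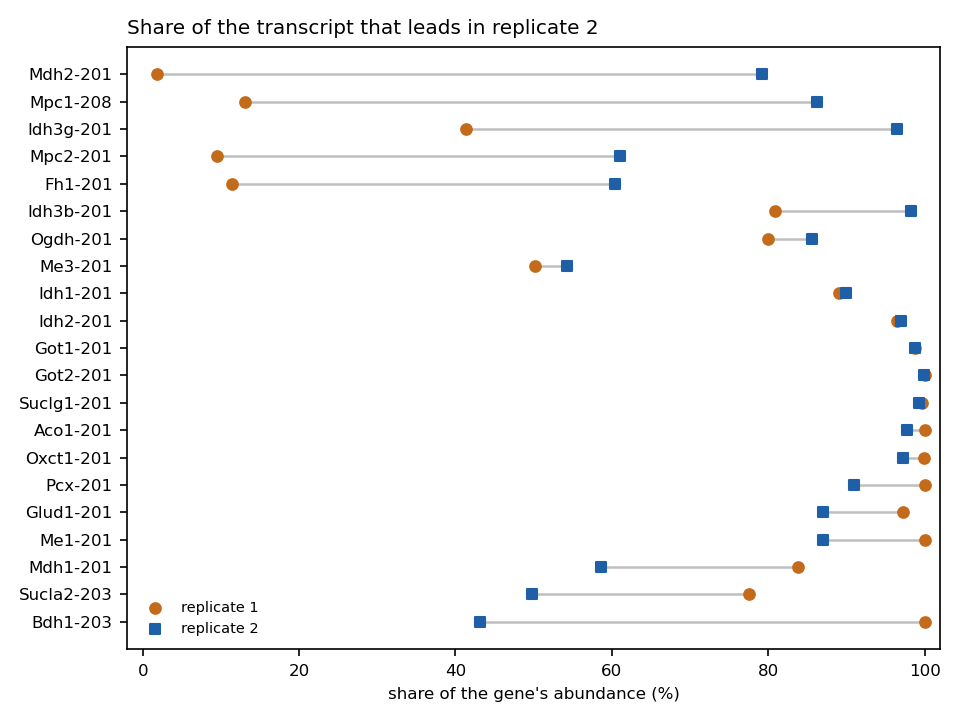
Share of the gene's abundance, in percent, taken by the transcript that leads in replicate 2, for the 21 genes with more than 1 transcript, with circles for replicate 1 and squares for replicate 2. Idh1, Idh2, Got1, Got2 and Suclg1 show nearly equal shares, while Mdh2-201 goes from 1.88% to 79.2%.

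Near-identical copies elsewhere in the genome could take reads from some members. The processed pseudogene Mpc1-ps on chromosome 12 matches the coding sequence of Mpc1 at 326 of its 327 bases, and the stretches printed here hold the single difference, marked by a capital. The match spans 330 bases, whereas Mpc1-208 has 958, so reads of the gene outside the match are not shared.
Mpc1: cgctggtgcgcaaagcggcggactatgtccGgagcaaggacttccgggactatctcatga
Mpc1-ps: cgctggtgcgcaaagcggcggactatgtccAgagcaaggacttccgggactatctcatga
The first is at chr17:8283901-8283960 (plus strand, exon 1 of Mpc1) and the second at chr12:110858825-110858884 (minus strand), both in GRCm38, and the difference is G41A, counted from the start codon. Mpc1-ps was assigned 74 and 366 counts, 1.57% and 6.27% of the counts of gene plus copy. In TPM it had 15.6 and 130, which is 7.45% and 24.8% of the sum. The short copy of Me1, Gm7329, was assigned 22 and 1 counts, only 1.02% and 0.044% of the counts of gene plus copy. In TPM, which divides by length, it made 43.4% and 2.74% of the sum. Copies of Got2 (Got2-ps1, 0 and 36 counts) and Suclg2 (Gm15163, 6 and 8) were assigned few reads, and the citrate synthase paralogue Csl had none. The split between a gene and its copy is uncertain. Genes on the opposite strand overlap some members, such as Lrfn4 within Pcx (0 and 142 counts) and BC037032 at the start of Oxct1 (70 and 109), and reads of such partners could not be told apart without strand.

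Other genes of the same pathways were followed from lists that hold 48 genes. Their calls are to be read against the shares over all tested genes, 38.4% higher and 27.2% lower, or 10.2% and 10.8% after the GC trend was removed. Of 9 further genes of the cycle, 3 were called higher in replicate 2 and 0 lower, a share near the background, and 2 and 0 after the GC trend was removed. Among them, the succinate dehydrogenase subunit Sdha had 1677 and 1352 nuclear TPM, and Sdhb had 376 and 1451. Of 8 tested shuttle carriers and glycerol phosphate shuttle genes, 5 were called higher and 2 lower, and after the GC trend was removed no call in either direction was left. The oxoglutarate carrier Slc25a11 had 153 and 627 nuclear TPM. The aspartate-glutamate carriers Slc25a12 and Slc25a13, which complete the shuttle, had 52.6 and 149, and 296 and 95.9, so their order differed between libraries. Slc25a18, a glutamate carrier, had no count.

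Among 7 tested genes of ketone and acetate use, 3 were called higher and 2 lower, near the background, and 1 and 0 with the GC trend removed. Acat1, which splits acetoacetyl-CoA, had 506 and 392 nuclear TPM, the acetate-activating Acss1 had 226 and 286, and the monocarboxylate transporter Slc16a1 had 325 and 123. The Oxct1 paralogues Oxct2a and Oxct2b had no count in either library. Of 13 genes of the pyruvate dehydrogenase complex, its regulators and lipoylation, 1 was called higher and 5 lower, and 1 and 1 with the GC trend removed. Before that adjustment the kinase Pdk2 was the gene called higher (26.2 and 412 nuclear TPM). Pdha1 was called lower (2802 and 1119), and Pdhb was not called (1574 and 832). With the GC trend removed, the log2 ratios of Pdk2 and Pdha1 were 0.69 and −0.16. Both lost their calls, so the calls left were of other genes. Of 7 amino acid and cataplerotic enzymes, 2 were called higher and 1 lower, and 1 and 0 with the GC trend removed. Glul had 328 and 330 nuclear TPM and Acly 24.1 and 31.8.

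Fatty acid oxidation and glycolysis genes also had positive median log2 ratios of counts between the libraries, as did all tested genes (0.21). Of 20 fatty acid oxidation genes 10 were called higher in replicate 2 and 0 lower, with a median log2 ratio of 0.96, close to the 0.94 of the 28 genes. Of 17 glycolysis genes 15 were called higher and 0 lower, with a median of 4.02. Over all tested genes 38.4% were called higher and 27.2% lower. Summed nuclear TPM of the fatty acid oxidation genes fell from 20187 to 15259, and that of the glycolysis genes rose from 2087 to 17343. The median GC contents were 50.3% for the 28 genes, 50.6% for fatty acid oxidation and 54.6% for glycolysis. After the GC trend was removed, 10.2% of all tested genes were called higher and 10.8% lower. Under the same adjustment 8 of the 28 genes, 6 of the 20 and 12 of the 17 were called higher, and 0, 0 and 1 lower. These differences between lists were not tested.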

How the data were processed

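Gene and transcript tables of 2 heart libraries, aligned to mm10 with annotation M4 per the deposited file descriptions, were used. The sources used here do not name the aligner or the estimating program. As the authors deposited them, expected counts (estimated, not whole), TPM, FPKM and the percent of a gene's abundance per transcript were used; posterior means served in alternatives. Whether counting used strand is not given, so reads of antisense genes cannot be separated. Expected counts were rounded for tests.

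Identifiers without version were matched to GENCODE M21 (42462 of 43346 genes got a symbol). Copies of mitochondrial genes (11) were found with blastn 2.17.0 at 95% identity over 90% of length, and copies of members at 90% over 200 bases. GC content is the mean over M21 transcripts weighted by TPM summed over both libraries. Genes with 20 counts over both libraries were tested with edgeR 4.0.16 (R 4.3.3), with 0.5 counts added to ratios. The GC trend is the median ratio in 50 GC bins. Intervals cover counting error alone. PCR copies are counted too, so the intervals may be too narrow even for that error. The test was checked on simulated counts with counting error alone. These held no GC trend, so the check does not cover the calls under the trend seen here. Tables were joined in Python 3.11.15 (pandas 2.3.3).

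Members, lists and pairs were chosen with earlier results of these data known. The text names all 28 members, both genes of every pair, the leading transcripts, and of each other pathway list the 3 genes of highest mean TPM and those at 0 in both libraries, except for items that are not reported here. Alternatives covered scaling (DESeq2 1.42.0 size factors, nuclear totals), filters, pseudocounts, posterior means, GC and each library alone.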

Additional observations from a re-analysis of the deposited data

How the results depend on the processing

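The share of nuclear TPM held by the 28 genes (1.95%) became 0.460% with mitochondrial RNA in the total, 1.83% by counts and 1.58% with posterior means; each library alone gave 1.90% and 2.00%. With the GC trend removed, calls higher in replicate 2 fell from 13 to 8 and calls lower from 6 to 0. Calls higher and lower were 17 and 10 at 1.5-fold, and 9 and 0 at 4-fold. Removing the GC trend turned the log2 ratio of Aco1 to −0.44, Bdh1 to −0.42, Idh1 to 0.29, Idh3a to 0.14, Me2 to 0.037 and Mpc2 to 0.0085. For pairs it turned the mean of Idh2 over Idh3a from −0.56 to 1.39, of Idh3a over Idh3b from 0.92 to −0.19 and of Got2 over Got1 from −0.23 to 0.29. Single libraries gave −2.98 and 1.86 for Idh2 over Idh3a, 2.498 and −0.65 for Idh3a over Idh3b, 3.56 and −0.47 for Idh3a over Idh3g, 2.87 and −0.019 for Dld over Dlst, −3.53 and 0.13 for Me3 over Me1, −0.35 and 1.04 for Cs over Fh1, and −2.46 and 0.64 for Slc25a12 over Slc25a13. With nuclear totals the calls of Idh1 and Mpc2 were lost and Cs, Dlst and Fh1 were called higher, and DESeq2 size factors added Idh3a to the lower calls. The cause was not tested. Other settings changed no direction of a member's ratio or a pair's mean. No paired analysis was possible because there is 1 group. Depth limits Pcx, with 6 counts in replicate 1, and Me2 and Ogdhl, with 56 and 68.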
